A study of Rhinolophus ferrumequinum with 8 samples.

Results

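Early arousal was compared with torpor in the spleen of wild female greater horseshoe bats (Rhinolophus ferrumequinum) by RNA sequencing of whole tissue. The comparison took the 2 libraries labelled arousal state and the 2 labelled torpor, which are 4 of the 8 libraries of the series, and all 13542 genes of 19652 whose mean over the 8 libraries was at least 1. Torpor bats were taken in November, and arousal bats, also taken in November, had been captured for 2 h. The winter active bats, given beside them as the later point, were taken in November too and had been captured for 26 h, and summer active bats were taken in July. Each state had 2 biological replicates, named here by state and number, and no genotype, drug, age, body temperature or time of day is given in the labels used here. The labels do not say whether the bats had aroused before or how handling was matched, so time since capture, handling and rewarming cannot be told apart. Nor do they say more of the replicates than that they are biological, so a p-value measures the spread between these samples only.

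Hibernating bats pass winter in bouts of torpor, in which body temperature and metabolism sink close to the surroundings, and break these bouts by short arousals in which they rewarm within hours. Transcription and translation slow in the cold and resume on rewarming, and arousal is accompanied by high oxygen use, stress hormones and the return of stored blood cells to the circulation. The spleen filters and stores blood cells in its red pulp and houses B cells, T cells and plasma cells in its white pulp, so its RNA reports on both.

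Levels are rescaled TPM, a signal scaled between libraries that is neither a count nor a per-million value, and differences are arousal minus torpor on the log2(level + 1) scale, where low genes show less than their full change. The arousal columns summed to 745098 and 780490 and the torpor columns to 986814 and 998271. The median log2 difference over all tested genes was 0.11. It became 0.45 when every column was set to a total of 1000000 -0.0024 under median-of-ratios scaling and -0.0304 under quantile normalization, so each gene and list below is to be read against these shifts. Replicates correlated at r = 0.937 in arousal and 0.959 in torpor, across genes within pairs of libraries, and arousal 1 lay nearer to winter active 1 (root mean square log2 distance 0.622) than to arousal 2 (0.693). Torpor 2 likewise lay slightly nearer to winter active 1 (0.602) than to torpor 1 (0.607), and its distance to arousal 1 was 0.699. The spleen transcription factor TLX1 was detected at 33.7 and 44.5 in torpor and 28.3 and 33 in arousal. SPIC, the factor of red pulp macrophages, stood at 637 and 350.4 and at 939 and 666, so the labelled tissue had its defining transcripts in all 4 libraries. Transcripts of liver stood apart in arousal 2 and those of neutrophils in torpor 1, and pancreatic transcripts differed between the replicates of both states, as given with the results they touch.

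No gene passed the threshold. With limma, 0 of 13542 genes (0%) had an adjusted p under 0.05, and the smallest adjusted p was 0.142. At an unadjusted p under 0.05, 1734 genes (12.8%) were higher in arousal and 932 (6.88%) were lower, so 65.0% of these lay higher. That share was 97.5% with columns set to 1000000, where 441 genes higher and 4 lower also passed the adjusted threshold, 46.0% under median-of-ratios scaling and 43.1% under quantile normalization. Without torpor 1 the numbers were 1099 and 353, and without arousal 1 they were 1373 and 524. Both arousal libraries lay above both torpor libraries in 4323 genes (31.9%) and below them in 3001 (22.2%). Among these genes without overlap, the log2 difference reached 1 in 898 higher and 172 lower genes, and 2 in 97 higher and 23 lower genes. An unadjusted limma p under 0.05 was reached by 720 and 127 of the first, and by 31 and 18 of the second. The 97 higher genes include 12 hepatocyte markers, with differences of at least 2.62, whose levels stood apart in arousal 2. An exact permutation test of 2 against 2 libraries cannot give a two-sided p below 0.333, so single genes rest on the shared spread of the 8 libraries. Each count of list members without overlap is to be read against the 31.9% and 22.2% of all genes, and each count at an unadjusted p under 0.05 against the 12.8% and 6.88%, and a share near these does not set a list apart. In what follows, "higher" and "lower" without a test describe levels in these 4 libraries. Genes named from a list were often those with its smallest p, or were chosen after their values were seen. Such a choice favours close replicates and separated states, so that separation is no result.

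The 12 named genes that were higher with the smallest p had differences of 1.48 to 2.10, each with an adjusted p of 0.142 with limma. They encode a kinase, enzymes of lipid and glycan metabolism, regulators of RNA and other proteins. HIPK3 (NCBI gene 117029966), a homeodomain-interacting protein kinase, stood at 13.3 and 15.4 in torpor and at 59.6 and 67.2 in arousal (log2 difference 2.07, SE 0.23). ACER2 (NCBI gene 117031938), a Golgi ceramidase that releases sphingosine, stood at 4.13 and 3.07 in torpor and at 17 and 20.3 in arousal (2.10, SE 0.25). In both genes the replicates of a state lay close together and far from the other state, which a choice by smallest p favours. The glycosyltransferase gene FUT11 was at 7.59 and 7.14 in torpor against 25.3 and 22 in arousal, and HYCC2, of a complex that makes phosphoinositides, at 2.55 and 2.61 against 10.5 and 11.5. CREBRF, a starvation-responsive regulator of CREB3 factors, was at 4.6 and 3.79 against 16.1 and 16.9, and PALS1, a cell polarity scaffold, at 4.25 and 4.39 against 17.2 and 14.7. The rule took only genes without overlap between the states, so that separation is no result. The differences of these 4 genes were 1.56, 1.74, 1.75 and 1.66.

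Several of the 12 act on RNA or its products. DCP1A, which activates removal of the mRNA cap, stood at 3.19 and 3.03 in torpor and 14 and 10.7 in arousal (1.69). TENT5A, a poly(A) polymerase, stood at 4.01 and 3.54 and 20.5 and 12.6 (1.84), and NUFIP2, an RNA-binding protein, at 3.52 and 5.47 and 23.9 and 16.3 (1.94). Arousal 1 was above arousal 2 in all 3. The nuclear protein gene RSBN1 stood at 3.14 and 3.65 and 11.6 and 10.9 (1.48), and EDEM3, which trims glycans of misfolded proteins in the endoplasmic reticulum, at 6.64 and 6.8 and 22.7 and 22.1 (1.60). In these 2 genes the arousal libraries differed little from each other. MED13L, of the Mediator kinase module, is given with its complex below.

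**Figure D1:**
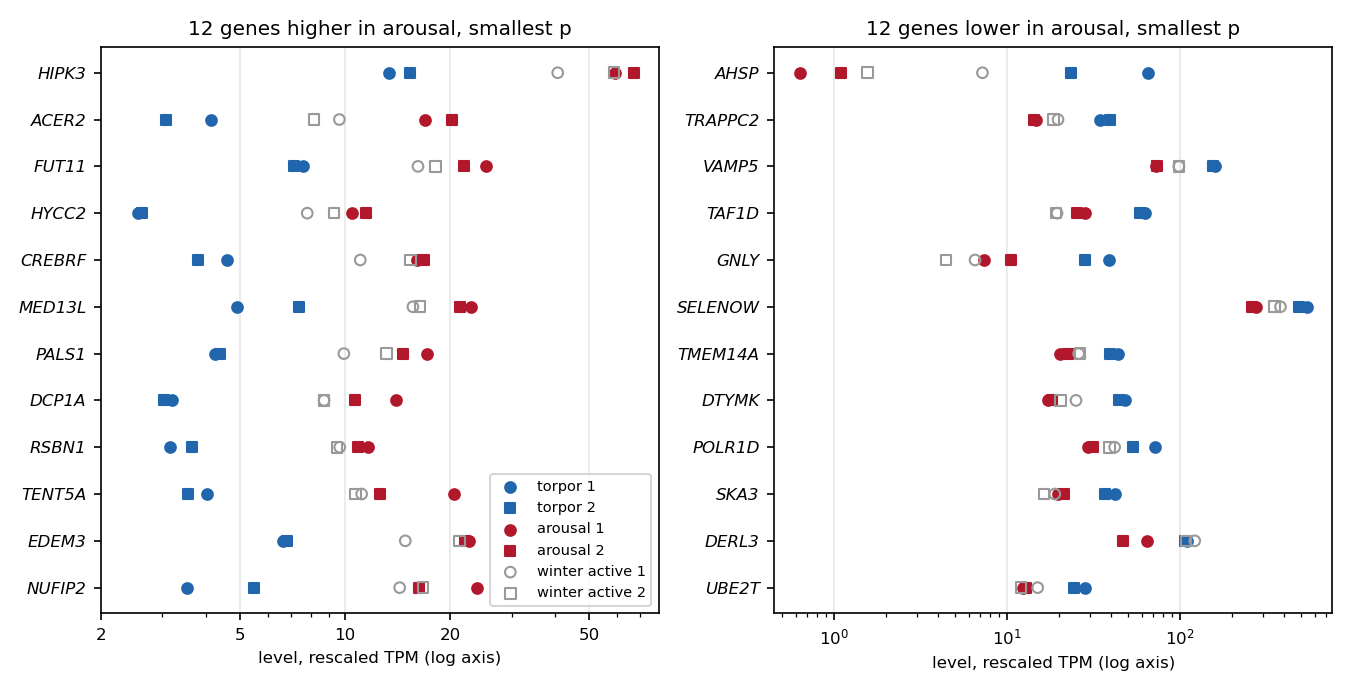
Levels of the 12 named genes with the smallest p in each direction, on a log axis of rescaled TPM. Each symbol is 1 library: filled blue torpor, filled red arousal, open grey winter active, circles replicate 1 and squares replicate 2. The genes were taken only from those without overlap, so red and blue symbols are apart by that rule. The winter active libraries lie beyond both torpor libraries in 12 of 12 higher and 11 of 12 lower genes.

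Nutrient-sensing and fasting genes were mostly higher in arousal. These genes include the FOXO factors, which enter the nucleus when insulin signalling is low, the insulin receptor and its substrates, and the regulators of TORC1 and TORC2. Of 30 members tested (32 listed), 21 were higher without overlap, against the 31.9% of all genes, and 1 was lower. At an unadjusted p under 0.05, 15 were higher and 0 lower. The median was 0.72, and it lay between 0.68 and 0.96 when any of the 4 libraries was left out. FOXO3 (NCBI gene 117019600) stood at 2.97 and 6.21 in torpor and 19.3 and 21.7 in arousal (2.0, SE 0.34, limma adjusted p = 0.142). INSR, the insulin receptor, stood at 1.03 and 1.32 in torpor and 5.21 and 5.75 in arousal (1.58, SE 0.26). PDK4, a kinase that inhibits pyruvate dehydrogenase during fasting, stood at 81.7 and 67.9 in torpor and 239 and 157 in arousal (1.37, SE 0.29). All 3 were separated between the states. TXNIP, which restrains glucose uptake, did not follow them, at 1047 and 839 in torpor and 998 and 1059.6 in arousal, and its states overlapped. The lower member without overlap was TFEB, the lysosomal regulator, at 37.6 and 42 in torpor and 36.6 and 22.5 in arousal (-0.45).

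The median gene of that list spans 43.1 kb, and long genes as a whole were higher in arousal. In quintiles of the RefSeq gene span, from the shortest (up to 6.45 kb) to the longest (from 63.9 kb), the median difference was -0.24, -0.061, 0.071, 0.25 and 0.49. Genes higher without overlap made up 13.3% of the shortest and 54.6% of the longest quintile, and genes lower without overlap made up 41.4% and 6.39%. The order of the 4 libraries at one end was the reverse of that at the other, with torpor 1 farthest from the mean of the 4 in both the shortest (0.17) and the longest quintile (-0.36). Mean level went with the difference too, with medians of 0.24, 0.31, 0.24, 0.049 and -0.24 from the lowest to the highest quintile of the 8-library mean. The FOXO list median exceeded the median of the fourth quintile of span, to which its median span belongs (0.72 against 0.25). For every list the part of span and level in its difference was not tested.

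**Figure D2:**
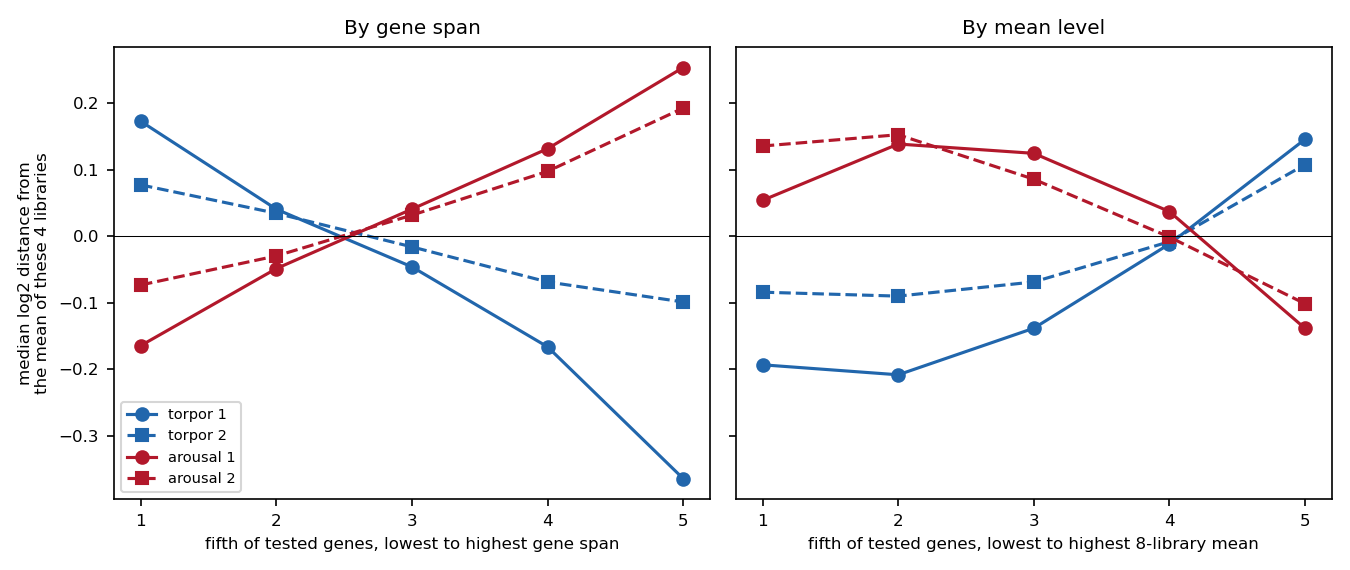
Median log2 distance of each library from the mean of the 4 libraries, in quintiles of gene span (left) and of the 8-library mean level (right), each quintile holding 2707 to 2710 genes. Blue is torpor, red arousal, circles and solid lines replicate 1, squares and broken lines replicate 2. Both arousal libraries lie above both torpor libraries in the 3 quintiles of longest genes and below them in the shortest and second quintiles.

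Glucocorticoid-induced genes, which the hormone receptor switches on within hours of a rise in cortisol, were mostly higher. Of 17 tested, 11 were higher without overlap and 3 lower, with 8 and 0 at an unadjusted p under 0.05, and the median was 0.52 (0.98 without torpor 1). FKBP5, a receptor co-chaperone and a common marker of the response, stood at 91.4 and 96 in torpor and 171 and 213 in arousal (1.02, SE 0.26, limma adjusted p = 0.159). ZBTB16, a transcriptional repressor, stood at 2.12 and 2.24 in torpor and 9.33 and 25.3 in arousal (2.37, SE 0.48), and FAM107A at 8.4 and 9.8 and 17.5 and 24.4 (1.11, SE 0.23). In each of them both arousal libraries were higher, and arousal 2, the library with liver transcripts, was the highest of the 4. ACER2, given above, is also on this list. TSC22D3, another classical target, stood at 275 and 123 in torpor and 229 and 306 in arousal, and there torpor 1 lay between the arousal libraries. The 3 lower members were GADD45A (-0.75), RGCC (-0.67) and ANGPTL4 (-0.44). The median span of the list was 13.9 kb, within the second quintile, whose median was -0.061.

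Circadian clock genes, whose loop of activators and repressors stalls in deep torpor in several hibernators, were mostly higher. Of 19 tested, 11 were higher without overlap and 1 lower, with 8 and 0 at an unadjusted p under 0.05, and the median was 0.68 (0.43 without torpor 2). CLOCK, an activator, stood at 1.78 and 3.2 in torpor and 8.48 and 7.87 in arousal (1.42, SE 0.34). PER1, a repressor and a glucocorticoid target, stood at 8.15 and 6.78 in torpor and 15.6 and 16.4 in arousal (1.01, SE 0.26), and RORA, an activator of BMAL1, at 1.24 and 1.18 and 2.84 and 3.95 (0.98, SE 0.29). The arousal libraries lay above the torpor libraries in all 3. NR1D1, the repressor of BMAL1, was the lower member, at 23 and 31 in torpor and 11.8 and 21.9 in arousal (-0.69), while BMAL1 itself overlapped, at 10.7 and 3.72 and 7.29 and 9.01. The median span of the list was 32.0 kb, within the fourth quintile of span. In that quintile the median was 0.25, and 41.6% of genes were higher without overlap. Times of day are not in the labels used here, so a difference in hour of sampling cannot be told apart from the state.

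Immediate early genes, induced within minutes by many stimuli, were higher in part. Of 23 tested, 10 were higher without overlap and 0 lower, with 6 and 0 at an unadjusted p under 0.05. The median of 0.35 depended on single libraries, at 0.59, 0.14, 0.13 and 0.67 without torpor 1, torpor 2, arousal 1 and arousal 2, and was 0.21 under quantile normalization. BTG2, an antiproliferative regulator, stood at 7.29 and 3.69 in torpor and 38.8 and 21.8 in arousal (2.27, SE 0.41, limma adjusted p = 0.142), the largest difference of the list. FOSL2, a slower member of the AP-1 family, stood at 7.09 and 8.6 and 20.5 and 19.6 (1.26), and the MAP kinase phosphatase gene DUSP1 at 73.8 and 43.2 and 133 and 121 (1.15). The fastest members differed less. FOS stood at 5.2 and 4.99 in torpor and 5.37 and 3.38 in arousal, with overlap. EGR1 stood at 7.41 and 10.4 and 16.2 and 12.6 (0.64), and JUN at 22.6 and 20.6 and 48.6 and 29 (0.77), both without overlap.

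In the stress responses of the cell, some sensors and factors, named for their small p, were higher, while the cytosolic chaperones HSPA8 and HSPH1 overlapped. The heat shock, unfolded protein and integrated stress lists held higher genes in shares near or below that of all genes. Of 23 heat shock genes, 6 were higher without overlap, a smaller share than the 31.9% of all genes, and 3 lower, with a median of 0.15 that turned to -0.04 without arousal 1 and was 0.059 without torpor 1 and 0.32 without arousal 2. DNAJB4, a co-chaperone, stood at 21.2 and 19.4 in torpor and 44.7 and 47.9 in arousal (1.15, SE 0.23), and HSF2, a heat shock factor, at 7.7 and 4.8 and 12.8 and 13.3 (0.98). HSPA8 stood at 500.1 and 689 and 809 and 517, and HSPH1 at 40.5 and 26.1 and 58.7 and 30.8, with arousal 2 between the torpor libraries in both.

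Of 22 genes of the unfolded protein response of the endoplasmic reticulum, 7 were higher and 8 lower without overlap, against 31.9% and 22.2% of all genes. Their median of 0.08 turned to -0.05 under median-of-ratios scaling, -0.12 without torpor 1 and -0.073 without arousal 1, and was 0.24 without torpor 2 and 0.18 without arousal 2. ERN1, the sensor that splices XBP1, stood at 3.92 and 3.87 in torpor and 10.7 and 11.6 in arousal (1.31, SE 0.24), and SEL1L, of the degradation machinery, at 11.3 and 22.5 and 37.2 and 32.3 (1.07). SEC61B, a translocon subunit, was lower, at 214 and 202 and 132 and 138 (-0.62), and the chaperone HSPA5 was at 211 and 188 and 378 and 213 (0.51), with arousal 2 just above torpor 1. The sensor and the degradation gene were thus higher and the translocon gene lower.

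The integrated stress response, which halts translation through phosphorylated eIF2, had 8 of 25 genes higher and 2 lower without overlap, the first a share near the 31.9% of all genes. Its median was 0.16, 0.058 without torpor 1, 0.42 without torpor 2 and -0.061 under quantile normalization. The members with the smallest p included kinases that phosphorylate eIF2. EIF2AK3 stood at 9.51 and 9.08 in torpor and 23.5 and 19.4 in arousal (1.12, SE 0.21), and EIF2AK2, which senses double-stranded RNA, at 2.29 and 3.18 and 7.46 and 7.34 (1.18, SE 0.26). The downstream factor DDIT3 stood at 17 and 6.45 and 24.6 and 30.3 (1.29), with torpor 1 nearer to arousal than torpor 2 was.

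Hypoxia factors and targets had 8 of 26 higher and 2 lower without overlap, the first a share near the 31.9% of all genes, with a median of 0.20 that was 0.11 under quantile normalization, 0.12 without torpor 2, 0.33 without arousal 1 and 0.12 without arousal 2. PFKFB3, which drives glycolysis and is induced by low oxygen, stood at 22.7 and 16.9 in torpor and 65.1 and 38.6 in arousal (1.31, SE 0.31). The factors HIF1A, at 39.5 and 34.4 and 70.9 and 47.4 (0.64), and its partner ARNT, at 11.9 and 11.1 and 22.3 and 19.8 (0.82), were also higher in both arousal libraries. VEGFA, a target, overlapped, at 6.51 and 13.4 and 10.3 and 9.03.

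Cold-responsive RNA-binding and CLK kinase genes were a mixed list of 22, of which 5 were higher and 4 lower without overlap. The median was 0.098 (-0.031 under median-of-ratios scaling, -0.014 without torpor 2 and -0.0037 without arousal 1). These values describe the mixed list, not cold-induced proteins alone. CIRBP and RBM3 are the cold-induced members given here, whose proteins accumulate at mildly lowered temperature. CIRBP stood at 385 and 301 in torpor and 260.1 and 255 in arousal (-0.40), without overlap, and the difference was -0.025 with columns set to 1000000. RBM3 stood at 498 and 462 and 313 and 464, with arousal 2 between the torpor libraries. CIRBP was therefore the lower one in both arousal libraries, by less than the shift between scalings.

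Genes that open and mark chromatin were higher as a group. Of 36 remodeller and histone methyltransferase genes, all tested, 26 were higher without overlap and 1 lower, with 19 and 1 at an unadjusted p under 0.05, and the median was 0.71 (0.42 without arousal 1 and 0.45 under quantile normalization). CHD9, a remodeller, stood at 4.16 and 5.01 in torpor and 16.4 and 10.6 in arousal (1.36, SE 0.27). ASH1L, a methyltransferase of histone H3, stood at 2.58 and 4.01 and 14.7 and 9.94 (1.63, SE 0.34), and CHD6 at 2.47 and 2.77 and 9.16 and 6.85 (1.31, SE 0.28). Arousal 1 exceeded arousal 2 in all 3. The lower member was EZH2, the Polycomb methyltransferase of dividing cells, at 14.2 and 11.4 in torpor and 9.03 and 5.75 in arousal (-0.74). The list has the longest genes of those described, with a median span of 81.6 kb, and its median stood beside 0.49 for the longest quintile of all genes. Its median distance from the mean of the 4 libraries was 0.69 in arousal 1 and 0.026 in arousal 2. For the longest quintile these distances were 0.25 and 0.19, so the list exceeded that quintile in arousal 1 only.

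Mediator links transcription factors to RNA polymerase II, and its subunits lay on both sides, in shares near those of all genes. Of 33 subunit genes, 11 were higher and 7 lower without overlap, against 31.9% and 22.2% of all genes. Their median of 0.083 turned to -0.043 under median-of-ratios scaling, -0.16 under quantile normalization and -0.095 without arousal 1, and was 0.19 without arousal 2. MED13L stood at 4.91 and 7.38 in torpor and 23 and 21.4 in arousal (1.72, SE 0.24, limma adjusted p = 0.142), its paralogue MED13 at 5.91 and 6.14 and 20.7 and 13 (1.31, SE 0.30), and the tail subunit gene MED23 at 5.17 and 3.43 and 9.77 and 10.3 (1.08). These 3 subunits were separated, while CDK8, the kinase of the same module, was lower, at 9.46 and 10 in torpor and 8.29 and 6.93 in arousal (-0.32, but 0.016 with columns set to 1000000). The polymerase itself went the other way. Of its 12 core subunit genes, 6 were lower without overlap and 1 higher, with a median of -0.36 that became 0.016 with columns set to 1000000. POLR2G stood at 104 and 105 in torpor and 61.3 and 65.9 in arousal (-0.71), and POLR2B, the catalytic subunit that was higher, at 34.8 and 34.3 and 52.4 and 41.1 (0.42). The small subunits are short genes (median span of the list 7.32 kb).

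Protein synthesis genes were lower. Of 77 cytosolic ribosomal protein genes, 73 were lower in both arousal libraries, against 22.2% of all genes, and 0 higher, with 51 lower at an unadjusted p under 0.05. The median was -0.69, -0.31 with columns set to 1000000, where the median of all genes was 0.45, and -0.14 under quantile normalization, where it was -0.0304. RPS21 stood at 2472 and 2667 in torpor and 1403 and 1536 in arousal (-0.81, SE 0.22), and RPS19 at 4532 and 4707 and 2176 and 2728 (-0.92, SE 0.27). Under quantile normalization their differences were -0.18 and -0.12. Both torpor replicates were close in each gene and lay well above arousal, which a choice by smallest p favours. RPL4 was the exception, at 32.4 and 1983 in torpor and 1241 and 1226 in arousal, where torpor 1 alone was low. The list has the shortest genes, with a median span of 3.32 kb, and the median of the shortest quintile of all genes was -0.24. Ribosomal protein genes also have close copies that may share reads.

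Mitochondrial ribosomal protein genes were lower in 49 of 74 cases without overlap and higher in 2, with a median of -0.39 (-0.25 without arousal 1 and -0.017 with columns set to 1000000). MRPS17 stood at 95.2 and 78.6 in torpor and 48.5 and 50.5 in arousal (-0.79, SE 0.20). Translation initiation factor genes were lower in 21 of 39 and higher in 3, with a median of -0.22 that turned to 0.15 with columns set to 1000000 and was -0.069 under quantile normalization. EIF1, which guards start codon choice, stood at 528 and 614 in torpor and 356 and 298 in arousal (-0.80, SE 0.20). Both genes were separated between the states. The higher initiation factors were EIF4G3 (0.71), EIF4E (0.34) and EIF2B3 (0.20).

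Respiratory chain and proteasome genes were lower in more cases than all genes, and glycolysis genes were divided. Of 56 nuclear genes of the respiratory chain, which makes ATP in mitochondria, 40 were lower and 1 higher without overlap, with a median of -0.47 (-0.29 without arousal 1, -0.098 with columns set to 1000000 and -0.27 under quantile normalization). NDUFAB1, a subunit of complex I, stood at 173 and 178 in torpor and 118 and 97.6 in arousal (-0.70, SE 0.17), and NDUFA2 at 199.6 and 207 and 128 and 138 (-0.61). No arousal value reached a torpor value in these genes. Of 33 proteasome subunit genes, 18 were lower and 4 higher, against 22.2% and 31.9% of all genes, with a median of -0.30 that turned to 0.08 with columns set to 1000000 and was -0.20 without torpor 1 and -0.11 under quantile normalization. SEM1 stood at 672 and 678 in torpor and 435 and 383 in arousal (-0.72). Glycolysis genes were lower in 7 and higher in 4 of 17 without overlap, with 0 lower and 1 higher at an unadjusted p under 0.05 and a median of -0.22 that turned to 0.16 with columns set to 1000000 and 0.023 under quantile normalization, and was -0.14 without torpor 1 and -0.0024 without arousal 2. ENO1, an enolase, stood at 214 and 209.7 and 163 and 165 (-0.37, but 0.012 with columns set to 1000000), and HK2, the inducible hexokinase, at 1.88 and 1.24 and 3.48 and 2.44 (0.63). The enolase was lower and the hexokinase higher, neither with overlap.

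Several selenoprotein genes were lower, while the antioxidant regulator NFE2L2 was higher. Among 34 selenoprotein and antioxidant genes, 6 were higher and 10 lower without overlap, with a median of -0.14 that turned to 0.23 with columns set to 1000000, 0.011 without arousal 1 and 0.0026 under quantile normalization, and was -0.22 without torpor 1, -0.045 without torpor 2 and -0.30 without arousal 2. SELENOW, a small selenoprotein, stood at 539 and 489.6 in torpor and 276 and 262 in arousal (-0.93, SE 0.18, limma adjusted p = 0.142), and SELENOH at 122 and 97.9 and 61.6 and 78.3 (-0.65). NFE2L2, the factor that turns on antioxidant genes, stood at 47.2 and 25.5 in torpor and 111 and 83.4 in arousal (1.44, SE 0.32). HMOX1, which breaks down haem, overlapped widely, at 1579 and 2316 and 2886 and 952. Autophagy genes had 11 of 30 higher and 4 lower, against 31.9% and 22.2% of all genes, with a median of 0.24 (0.16 without torpor 1 and 0.13 without arousal 1). ATG14, of the complex that starts the autophagosome, stood at 5.64 and 4.05 in torpor and 14.1 and 11 in arousal (1.22, SE 0.24), while GABARAP, which coats it, was lower, at 1277 and 1092 and 854 and 732 (-0.58).

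**Figure D3:**
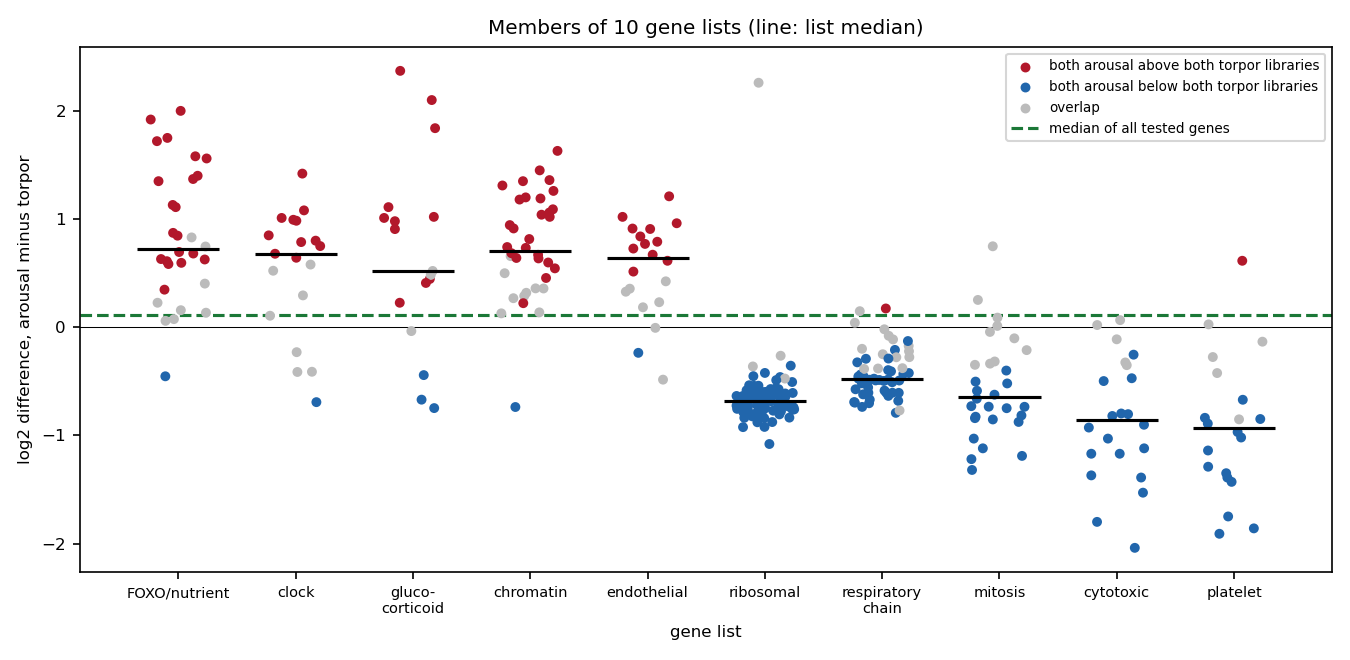
Log2 difference, arousal minus torpor, of each tested member of 10 gene lists, with 1 point per gene, a black line at the list median and a broken green line at the median of all tested genes (0.11). Red points have both arousal libraries above both torpor libraries, blue points the reverse, and grey points overlap. Points lie mostly above the green line in the first 5 lists and below it in the last 5, and the grey ribosomal point at 2.26 is RPL4.

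The other named genes that were lower with the smallest p include genes of membrane fusion and vesicle tethering, of RNA polymerase I, and of nucleotide synthesis, DNA repair and the kinetochore. VAMP5, a membrane fusion protein, stood at 159 and 154 in torpor and 72.8 and 73.7 in arousal (-1.09, SE 0.16). TRAPPC2, a vesicle tether, stood at 34.6 and 39.5 and 14.7 and 14.3 (-1.29, SE 0.18), and the membrane protein gene TMEM14A at 44 and 39.5 and 20.3 and 22.5 (-0.93). In each the replicates of a state were close to each other. TAF1D, of the RNA polymerase I initiation factor, stood at 62.5 and 58.7 in torpor and 28.1 and 25.5 in arousal (-1.15, SE 0.18), and POLR1D, a subunit shared by polymerases I and III, at 71.9 and 53.5 and 29.5 and 31.5 (-1.0). Both were separated between the states. DTYMK, which makes the thymidine nucleotide for DNA, stood at 48.3 and 44.4 and 17.3 and 18.1 (-1.34), SKA3, of the kinetochore, at 42 and 36.6 and 19.7 and 21.3 (-0.90), and UBE2T, of DNA crosslink repair, at 28.3 and 24.5 and 12.3 and 12.9 (-1.0). These genes of dividing cells were lower in both arousal libraries. The 12 lower genes were likewise taken only from genes without overlap between the states. Their limma adjusted p was 0.142 or 0.143.

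Red blood cell genes had the largest lower differences among the named genes. AHSP (NCBI gene 117019823), the chaperone of alpha-globin, stood at 65.4 and 23.3 in torpor and 0.633 and 1.1 in arousal (-4.44, SE 0.62, limma adjusted p = 0.142). ALAS2, the red cell enzyme that starts haem synthesis, stood at 32.6 and 33.7 in torpor and 0.0419 and 0.941 in arousal (-4.58, SE 1.17, limma adjusted p = 0.156), and the globin gene HBM at 24.5 and 25.5 in torpor, 0 and 0.829 in arousal. The torpor libraries were close in ALAS2 and HBM, and both arousal libraries were near the floor, HBM being listed at 0 in arousal 1. In whole tissue, fewer cells of a type and less RNA per cell cannot be told apart. Of 19 erythroid markers tested (25 listed), 13 were lower without overlap and 2 higher, with 5 and 0 at an unadjusted p under 0.05, and the median was -0.48. Their summed level was 259 and 182 in torpor against 98 and 93.9 in arousal. The higher members were TFRC, the transferrin receptor, which other dividing cells carry too (0.31), and TMCC2 (0.46).

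Unnamed loci carried the same pattern at far higher levels. They were chosen after their values were seen. LOC117019384 stood at 5794 and 7037 in torpor and 11.9 and 213 in arousal (-6.92, SE 1.82, limma adjusted p = 0.164). In the RefSeq annotation it lies next to HBM, and LOC117019380, the next gene, lies between it and the globin gene HBQ1. LOC117030459, on another chromosome, stood at 8163 and 12207 and 18.1 and 209.9 (-7.30, SE 1.68, limma adjusted p = 0.146). Together with LOC117019380 and LOC117030460 they made up 2.25% and 3.13% of the column total in torpor and 0.00725% and 0.109% in arousal. The share was 0.754% in winter active 1, 0.0184% in winter active 2 and 29.9% and 29.5% in summer active. All 4 loci were thus lower in both arousal libraries, with arousal 1 the lowest of the 8 libraries.

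Platelet and megakaryocyte markers were lower as well. Of 20 tested, 14 were lower without overlap and 1, VWF, which endothelium also makes, was higher, with 8 lower at an unadjusted p under 0.05. The median was -0.93, -0.55 without torpor 1 and -1.41 without torpor 2. GFI1B, a factor of megakaryocytes and red cell precursors, stood at 13.2 and 3.47 in torpor and 1.2 and 1.19 in arousal (-1.86, SE 0.56), and GP1BB, a platelet receptor chain, at 9.07 and 4.5 and 2.44 and 1.34 (-1.39, SE 0.40). Torpor 1 was the highest library in both. TMEM40 stood at 18.9 and 22.9 and 10.5 and 12 (-0.84), with torpor 2 the highest.

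Cytotoxic lymphocyte markers, of natural killer and killer T cells, were lower in 17 of 22 genes without overlap and higher in 0, with 9 lower at an unadjusted p under 0.05. The median was -0.86, -0.62 without torpor 1, and -0.53 with columns set to 1000000. GNLY, a granule protein that kills microbes, stood at 38.9 and 28.1 in torpor and 7.33 and 10.5 in arousal (-1.80, SE 0.31, limma adjusted p = 0.142). CCL5, a chemokine, stood at 158 and 97 and 45.3 and 18.9 (-2.04, SE 0.50), and NKG7 at 28.1 and 23.3 and 14.6 and 7.94 (-1.17, SE 0.36). Arousal lay below torpor in each. PRF1, perforin, overlapped, at 13.3 and 2.84 and 8.73 and 5.16. The list's genes are short (median span 6.18 kb, in the shortest quintile, whose median was -0.24).

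T-cell and B-cell markers were divided. Of 20 T-cell markers, 4 were higher and 5 lower without overlap, with a median of -0.012 that turned to 0.21 with columns set to 1000000, 0.074 without torpor 1 and 0.15 without arousal 2, and was -0.36 without torpor 2 and -0.36 without arousal 1. IL7R, the receptor of resting T cells, stood at 10.9 and 7.73 in torpor and 23.4 and 21.6 in arousal (1.20), while LAT, a signalling adaptor, stood at 40.1 and 26.2 and 20.2 and 14.2 (-0.90) and the costimulator CD27 at 33.7 and 31.9 and 18.9 and 16.7 (-0.85). IL7R was higher and the other two lower, each without overlap. Of 19 B-cell markers, 3 were higher and 3 lower, with a median of 0.095 that turned to -0.033 under median-of-ratios scaling, -0.15 without torpor 1, -0.35 without arousal 1 and -0.0041 under quantile normalization, and was 0.15 without torpor 2 and 0.36 without arousal 2. MS4A1, the surface protein CD20, stood at 89.2 and 48.2 in torpor and 192 and 127 in arousal (1.24, SE 0.44), and the B-cell factor PAX5 at 3.22 and 5.36 and 13.5 and 6.43 (1.0). FCRLA was lower, at 7.19 and 11.4 and 5.72 and 3.29 (-0.90).

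Of 25 homing and sphingosine phosphate genes, 9 were higher without overlap, near the 31.9% of all genes, and 4 at an unadjusted p under 0.05, against 12.8%. Apart from ACER2, these were the receptors CXCR5, CXCR4 and S1PR1, which place lymphocytes in the spleen. CXCR5, which draws B cells into follicles, stood at 10.8 and 4.64 in torpor and 45.6 and 23.7 in arousal (2.05, SE 0.52, limma adjusted p = 0.158). CXCR4, which holds cells in marrow and red pulp, stood at 41.1 and 10.3 and 78.2 and 63.4 (1.71, SE 0.54), and S1PR1, the receptor that guides lymphocyte exit towards sphingosine phosphate, at 12.5 and 6.58 and 24.7 and 20.1 (1.20, SE 0.33). Torpor 2 was the lowest library in all 3. ACER2 was also among the higher members, and 1, the ligand CXCL12, was lower without overlap (-0.34, but 0.038 with columns set to 1000000 and 0.0303 under quantile normalization). The median was 0.28, 0.18 without torpor 1, 0.13 without arousal 1 and 0.10 under quantile normalization.

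Plasma cell markers were lower for several secretory genes and higher for some regulators. Of 12 markers, 7 were lower and 4 higher without overlap, with a median of -0.41 (-0.26 without arousal 1 and -0.22 under quantile normalization). DERL3, which removes misfolded secretory proteins, stood at 109.7 and 107 in torpor and 64.1 and 46.6 in arousal (-0.97, SE 0.21, limma adjusted p = 0.143), and FKBP11 at 42.5 and 46.3 and 25.1 and 28.4 (-0.71). TENT5C, a poly(A) polymerase of these cells, was higher, at 9.92 and 10.1 and 25.6 and 17.3 (1.0, SE 0.25). IGLL5, an immunoglobulin lambda-like gene chosen after its values were seen, stood at 82790.3 and 104589 in torpor and 46984 and 25721 in arousal (-1.42, SE 0.45). It alone made up 25% of the difference between the column totals of the states, and the 12 genes with the largest shares made up 49.5%.

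Of 22 macrophage markers, 4 were higher and 6 lower without overlap, with a median of -0.0092 that turned to 0.36 with columns set to 1000000, 0.087 without torpor 2, 0.26 without arousal 2 and 0.14 under quantile normalization, and was -0.26 without torpor 1 and -0.38 without arousal 1. MS4A7 stood at 616 and 906 in torpor and 488 and 299 in arousal (-0.96), and the complement gene C1QA at 7835 and 7117 and 4818 and 3756 (-0.81), both lower, while SPIC was higher (0.74). Of 15 dendritic cell markers, 6 were higher and 1 lower, with a median of 0.21 (0.33 without torpor 1, 0.11 without torpor 2, 0.14 without arousal 2 and 0.019 under quantile normalization). TCF4, the factor of plasmacytoid dendritic cells that B cells express too, stood at 12.3 and 16.5 in torpor and 40.9 and 29.2 in arousal (1.22, SE 0.25), and IRF8, shared by the same cells, at 86.2 and 58.5 and 159.7 and 138 (1.05, SE 0.24). Both were separated between the states.

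Neutrophil markers depended on torpor 1. Their sum was 14751 in torpor 1 and 1952 in torpor 2, against 1297 and 4270.0 in arousal, and the median of 15 tested markers was -1.15 with torpor 1 and 0.22 without it (-2.76 without torpor 2 and -0.55 without arousal 1). S100A8, a calprotectin chain, stood at 3214 and 357 and 216 and 895, and the granule protease ELANE at 81.1 and 2.89 and 2.34 and 2.47. In ELANE both arousal libraries lay below both torpor libraries, and S100A8 overlapped between the states. IL1B, the cytokine of activated myeloid cells, was also highest in torpor 1, at 210.4 and 27.6 in torpor and 65.5 and 87.3 in arousal.

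Vessel and stromal markers were separated upwards more often than all genes but reached a small unadjusted p no more often. Of 20 endothelial and sinus-lining markers, 12 were higher without overlap and 1 lower, against 31.9% and 22.2% of all genes, with 2 and 0 at an unadjusted p under 0.05, against 12.8% and 6.88%, and the median was 0.64. It stayed between 0.57 and 0.65 without each of the 4 libraries. EMCN, a sialomucin of sinus and venous endothelium, stood at 2.51 and 2 in torpor and 4.89 and 5.3 in arousal (0.91, SE 0.25), the receptor FLT1 at 2.38 and 2.57 and 5.92 and 5.18 (0.91), and the endothelial factor ERG at 7.71 and 5.28 and 12.3 and 14.5 (0.96). All 3 were without overlap. Of 25 stromal and collagen markers, 12 were higher and 3 lower without overlap, with 3 and 0 at an unadjusted p under 0.05 and a median of 0.44 (0.21 without torpor 1). MYH11, the myosin of smooth muscle, stood at 22.9 and 25 in torpor and 46.6 and 56.2 in arousal (1.07, SE 0.24), and the basement membrane collagen gene COL4A1 at 13 and 12.3 and 24 and 29 (1.0). The lower ones were NKX2-5 (-0.66), TLX1 and COL3A1 (-0.33 and -0.31, but 0.039 and 0.061 with columns set to 1000000). These are long genes, with median spans of 31.5 and 36.1 kb, beside a median of 0.25 in that quintile.

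Innate and antigen-presenting programs were lower in part. Of 19 antigen presentation genes, 11 were lower and 2 higher without overlap, with 7 and 0 at an unadjusted p under 0.05, and the median was -0.40 (-0.68 without arousal 1, -0.18 without arousal 2, -0.025 with columns set to 1000000 and -0.12 under quantile normalization). B2M, the common light chain of class I molecules, stood at 3462 and 5062 in torpor and 2372 and 1732 in arousal (-1.05, SE 0.29), and PSME1, of the proteasome activator that favours presented peptides, at 387 and 369 and 229.5 and 218 (-0.76, SE 0.18). Both were lower in both arousal libraries. Of 39 interferon-stimulated genes, 16 were lower and 8 higher, with a median of -0.32 that became 0.01 with columns set to 1000000 and was -0.18 without torpor 2 and -0.17 without arousal 2. ZBP1, a sensor of Z-form nucleic acid, stood at 115 and 175 in torpor and 58.3 and 57.1 in arousal (-1.28, SE 0.43), and IFI27 at 282 and 429 and 180.1 and 196 (-0.88, SE 0.30). EIF2AK2, given above, was the highest member of this list, so its members were on both sides.

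Toll-like receptor genes, which detect microbial products, were split, 8 higher and 6 lower of 22, against 31.9% and 22.2% of all genes. Their median of 0.14 turned to -0.095 under quantile normalization and -0.15 without arousal 1, and was 0.43 without arousal 2. LY96, the lipopolysaccharide co-receptor, stood at 239 and 205 in torpor and 84.1 and 144 in arousal (-1.0), and the kinase gene IRAK2 at 16 and 13.8 and 45.3 and 20.5 (0.99). The first was lower and the second higher, each without overlap. Of 24 cytokine and NF-kB feedback genes, 2 were higher and 1 lower without overlap, with a median of 0.34 that was 0.66, 0.099, 0.13 and 0.58 without torpor 1, torpor 2, arousal 1 and arousal 2 and 0.16 under quantile normalization. NFKBIZ, an inducible co-regulator of NF-kB, stood at 53.1 and 52.9 in torpor and 138 and 97.5 in arousal (1.11). BIRC3, a target of the pathway, stood at 60.1 and 36.2 and 100.2 and 60 (0.72), and SOCS3, which damps cytokine signals, at 13.9 and 4.17 and 24.6 and 11.9 (1.05). In the last 2 the states overlapped.

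Cell division genes were lower. Of 30 mitosis genes, 20 were lower without overlap and 0 higher, with 10 lower at an unadjusted p under 0.05, and the median was -0.64 (-0.36 without arousal 2 and -0.37 with columns set to 1000000). BIRC5, survivin, stood at 58.1 and 55.7 in torpor and 26.6 and 24.8 in arousal (-1.12, SE 0.29), and the mitotic cyclin CCNB2 at 11 and 10.8 and 4.6 and 3.65 (-1.22, SE 0.32). Both arousal libraries were below both torpor libraries. MKI67, the proliferation marker, overlapped, at 6.55 and 10 and 10.9 and 3.3, with arousal 1 the highest and arousal 2 the lowest. Of 30 S-phase genes, 14 were lower and 5 higher, with a median of -0.33 that became 0.019 with columns set to 1000000 and was -0.15 without torpor 1, -0.50 without arousal 1 and -0.21 without arousal 2. RFC2, of the clamp loader, stood at 125 and 133 in torpor and 74.7 and 77.1 in arousal (-0.76), and TYMS, which makes thymidylate, at 23.5 and 22.8 and 10.3 and 6.34 (-1.41). Of 21 BCL2 family and death genes, 8 were higher and 6 lower, against 31.9% and 22.2% of all genes. Their median of 0.13 ranged from 0.024 without torpor 2 to 0.30 without torpor 1, and was 0.058 without arousal 1 and 0.20 without arousal 2. BMF, a killer protein of the family, stood at 15.1 and 18.5 and 28.4 and 27.3 (0.70), and BAD, another, at 31.4 and 31.8 and 15.7 and 19.9 (-0.80), in opposite directions.

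**Figure D4:**
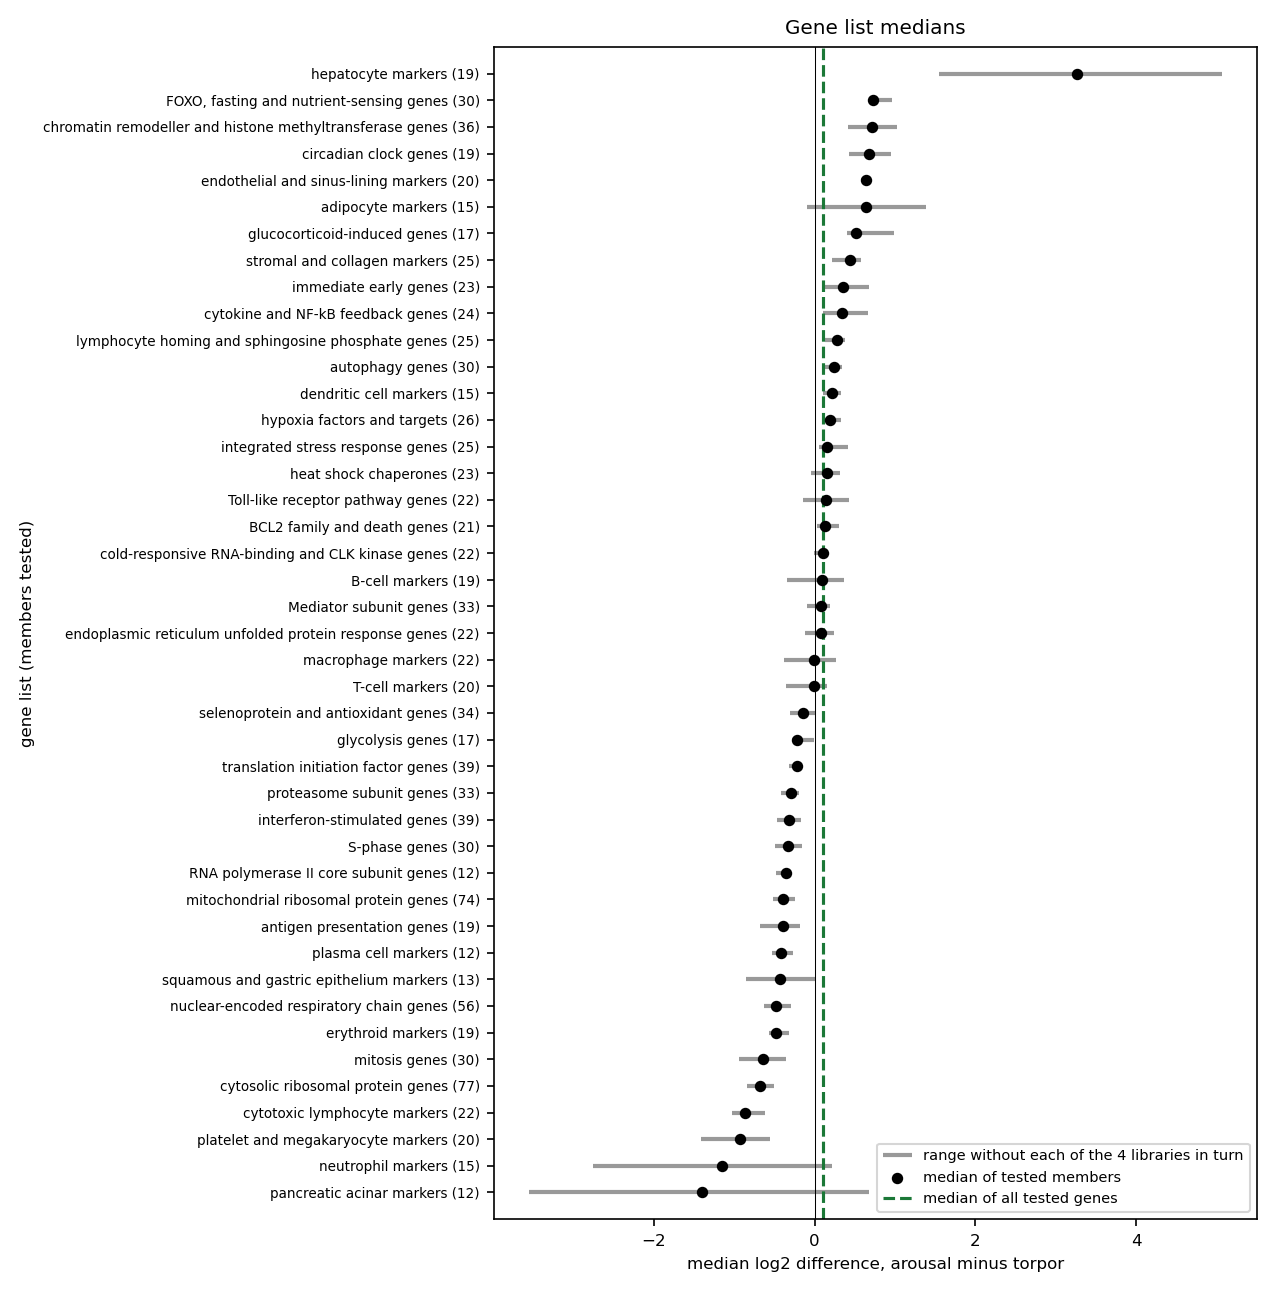
Median log2 difference, arousal minus torpor, of the tested members of 43 gene lists (number tested in brackets). Black points are medians with all libraries, grey bars the range when each of the 4 libraries was left out in turn, and the broken green line the median of all tested genes (0.11). Hepatocyte, adipocyte, neutrophil and pancreatic bars are the widest, and the neutrophil, pancreatic and adipocyte bars cross 0.

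Transcripts of other organs set the largest higher values and differed between replicates. The 8 named genes with the largest higher differences (2.52 to 4.81), among them TAT, TDO2 and APOB, are liver genes or genes highly expressed in liver, and in each arousal 2 was far above the other 3 libraries. TAT, an amino acid enzyme induced by glucocorticoids in liver, stood at 1.22 and 0.21 in torpor and 6.5 and 282 in arousal (4.81, SE 1.91, limma adjusted p = 0.23). It differed by 2.19 without arousal 2. TDO2, which opens tryptophan breakdown, stood at 4.7 and 0.0657 and 10.3 and 270.3 (4.49, and 2.20 without arousal 2). Albumin, ALB, stood at 378 and 32.1 and 603 and 12262. The 19 hepatocyte markers summed to 1212 and 127 in torpor and to 1501 and 24405 in arousal, none was at 0 in any of the 4 libraries, and 12 were higher without overlap. Their median was 3.26 with arousal 2, 1.55 without it, 2.02 without torpor 2 and 5.07 without arousal 1. The part of these transcripts in the differences of other genes that liver also makes was not tested.

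Pancreatic acinar markers, most of them digestive enzymes, summed to 2003 and 444 in torpor and to 57.4 and 1117 in arousal. No tested member was without overlap, and the median of -1.40 turned to 0.67 without arousal 1 and was -0.53 without torpor 1, -2.32 without torpor 2 and -3.55 without arousal 2. CTRC, a digestive protease, stood at 363 and 81.4 and 9.56 and 152. Adipocyte markers had a median of 0.63 that turned to -0.099 without arousal 2 and was 1.39 without arousal 1, although their sum was lower in arousal (3564 and 3072 against 1970.4 and 1767). CFD, the abundant adipsin that macrophages make too, held most of that sum, at 3053 and 2756 in torpor and 1624 and 1069 in arousal (-1.14, SE 0.33). Squamous and gastric markers summed to 76.3 and 154 in torpor against 6.13 and 30.8 in arousal, and 7, 1, 7 and 5 of 14 were at 0 in torpor 1, torpor 2, arousal 1 and arousal 2. Their median was -0.43, -0.85 without torpor 1, 0 without torpor 2 and -0.66 without arousal 2. PGC, the gastric pepsinogen, stood at 0.282 and 89.5 and 0.139 and 0.129, and was high in torpor 2 alone.

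**Figure D5:**
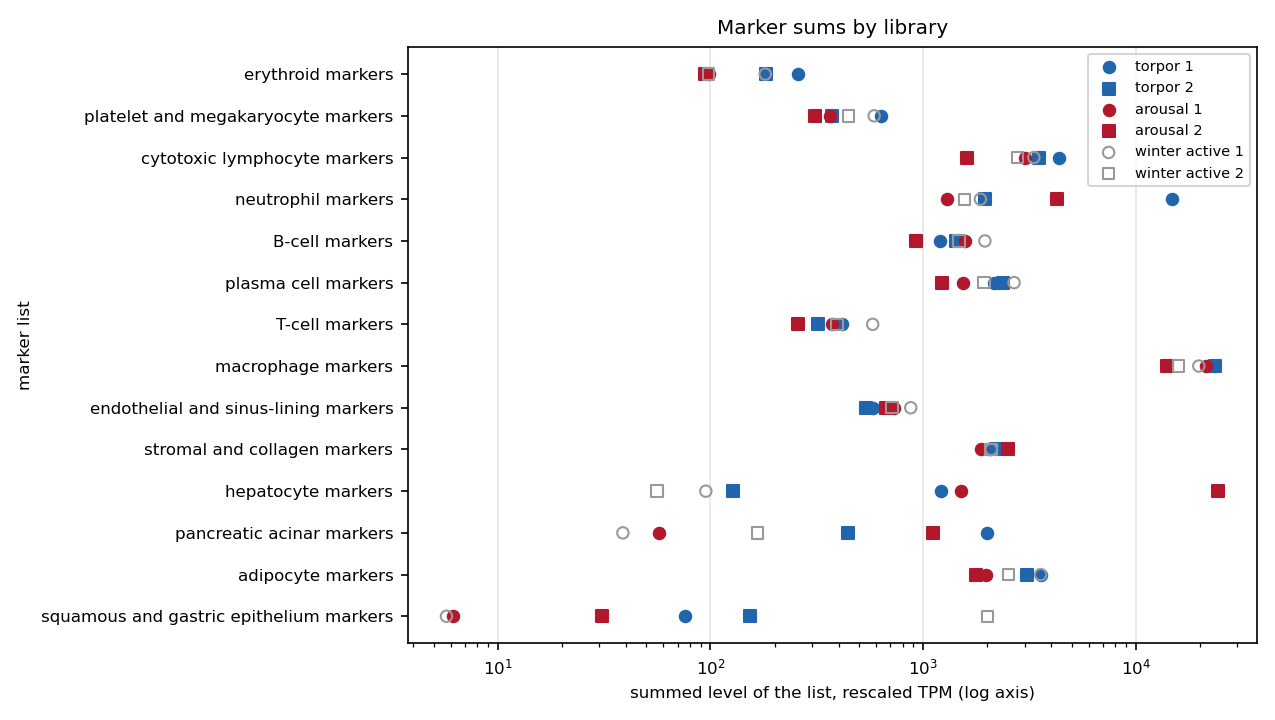
Summed level of the tested members of 14 marker lists in each library, on a log axis of rescaled TPM. Filled blue is torpor, filled red arousal and open grey winter active, circles are replicate 1 and squares replicate 2. The hepatocyte sum of arousal 2 (24405) stands far to the right of the other libraries, the neutrophil sum of torpor 1 likewise, and the erythroid sums of both arousal libraries lie left of both torpor libraries.

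The winter active libraries, from bats captured for 26 h, lay between torpor and early arousal for most of the 12 genes with the smallest p in each direction, and overlapped arousal in many other named genes. With limma, 0 genes (0%) differed between winter active and arousal at an adjusted p under 0.05 (smallest 0.227). At an unadjusted p under 0.05, 417 genes (3.08%) were higher in winter active and 321 (2.37%) lower, and the median over all genes was -0.037. The numbers were 179 and 934 with columns set to 1000000, 283 and 499 without arousal 1 and 172 and 85 without winter active 1. This comparison shares the arousal libraries with the main one, and the genes were chosen for their arousal levels, so the values are a description. Of the 79 genes named by rule that were higher in arousal without overlap, the winter active libraries overlapped arousal in 41 and lay below it in 35, and of the 73 lower ones they overlapped it in 24 and lay above it in 46. Among the 8 largest higher differences, which carry the liver transcripts of arousal 2, both winter active libraries were above both torpor libraries in 1 gene, and among the 8 largest lower ones they were below torpor in 4. Of the 12 higher genes with the smallest p, all had both winter active libraries above both torpor libraries, and 11 had both below both arousal libraries. ACER2 stood at 9.64 and 8.15 in winter active (-0.99 against arousal) and HIPK3 at 40.7 and 58.9 (-0.36). FOXO3 stood at 11.1 and 14.1 and PDK4 at 103 and 119, lower than in arousal in both libraries (-0.67 and -0.80). FKBP5 stood at 170.1 and 153 (-0.24). Each of these genes was therefore still above torpor at the later point and below early arousal.

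Other genes overlapped early arousal or lay beyond it. BTG2 stood at 35.3 and 24.8 in winter active, CXCR5 at 51.2 and 32.5, CXCR4 at 85.7 and 68.7 and FAM107A at 22.9 and 26, all overlapping arousal. BMF was higher still, at 47.5 and 40.9 (0.64), as was EMCN, at 8.64 and 6.73 (0.50). Among the 12 lower genes, 11 had both winter active libraries below both torpor libraries, and 8 had both above both arousal libraries. DERL3 was the exception, at 121 and 108, back at the torpor level. TAF1D was lower at 19.4 and 19.2, below arousal, and GNLY likewise at 6.53 and 4.45. Ribosomal protein genes were 0.53 higher than in arousal in the median, with 14 of 77 at an unadjusted p under 0.05, and RPS19 stood at 4124 and 3231. CCL5 stood at 111 and 78.7, CD27 at 43.2 and 29.8 and ZBP1 at 165 and 83.5, each above arousal. The red cell genes were uneven, with ALAS2 at 23 and 0.218 and AHSP at 7.21 and 1.56, so winter active 1 was near torpor in ALAS2 and winter active 2 near arousal.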

How the data were processed

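RNA of whole spleen was sequenced on Illumina libraries, per the labels' protocols. Quantification used kallisto (0.46.2) and sleuth (0.30.0), per the submitters' processing notes. Build and rescaling step: not given in the sources used here. For each gene and library the authors deposited 1 signal value, a rescaled TPM without counts, so depth is unknown. Tests had been planned for TPM and were applied to this signal. All 19652 identifiers matched RefSeq (mRhiFer1_v1.p), which gave names, neighbours and gene span. Span replaced protein length after the files were seen. Globin, ribosomal protein and interferon genes can share reads with close copies.

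Genes averaging at least 1 over the 8 libraries entered 1 limma fit (version 3.58.1, R 4.3.3, with a trend) of log2(value + 1) on the 4 states, with a threshold of 0.05 on the Benjamini-Hochberg adjusted p. The members and all 43 gene lists were chosen with earlier results of these data known, and lists are described by counts and medians only. Named genes were the 12 smallest p and 8 largest differences in each direction without overlap, up to 3 smallest p per list and a fixed set, 174 in all. Other list members and unnamed loci named in the text were chosen after their values were seen. Also tried were another pseudocount (0.1), other filters (none, or a mean of 5), 3 other scalings, robust variances, a replicate block, the 2 states alone and fits without each library. The fit was also run on simulated independent normal values with planted differences. These held no shift between libraries and no outlier library, so the run does not bear on such features, and its outcome is not given here.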

Additional observations from a re-analysis of the deposited data

How the results depend on the processing

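The counts past the adjusted threshold were 0 in both directions under the other settings tried, apart from these. With columns set to 1000000, 441 genes were higher in arousal than in torpor and 4 lower. Without winter active 1 or winter active 2, genes lower in arousal numbered 2 each time (ALAS2 and LOC117019706), so leaving out each library gave 0 to 2 lower and 0 higher genes. Genes higher in winter active than in arousal numbered 1 with no filter on low values and 1 without winter active 2, and 0 to 1 over the fits without a library, and lower genes 0. The replicate block left 0 calls in both comparisons, with 2039 higher and 980 lower genes at an unadjusted p under 0.05, and the deviations of arousal 1 and torpor 1 correlated at -0.191, so the numbers, which no label ties to shared animals, were not used as pairs. Of 136 named differences, 5 turned in sign: with columns set to 1000000, CDK8 stood at 0.016, COL3A1 at 0.061, CXCL12 at 0.038 (0.0303 under quantile normalization), ENO1 at 0.012 and TLX1 at 0.039. With that scaling 43 of the 136 passed the threshold. The 136 do not cover every gene in the text, and genes whose states overlapped can turn when a library is left out. RPL4, outside the 5, stood at 2.26, yet both arousal libraries (1241 and 1226) lay below torpor 2 (1983), so its sign rested on torpor 1. A fit without a library takes the lone replicate of a state to vary like the others. Depth is unknown. Promoter sequences and protein lengths were not analysed here.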

Other observations

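Some genes were low in both arousal libraries and in none of the other 6. Genes were counted, by a rule chosen after the values were seen, where both arousal libraries lay at least 2-fold below or above every other library and the higher side was at least 5. Of the 13542 tested genes, 7 met this rule on the low side and 0 on the high side. The rule used the levels as given, and the arousal columns had the lowest totals (745098 and 780490, then 828257 in winter active 2). Apart from LOC117019706, the genes lay only 2.06-fold to 2.57-fold below the nearest other library. The rule was not applied under other scalings, so these counts may depend on the scaling. The gene farthest apart was LOC117019706, which lies between LOC117019707 and ZSCAN10 in the RefSeq annotation. It stood at 96.8 and 83.7 in torpor, 147 and 41.2 in winter active and 69.5 and 95.3 in summer active, against 1.33 and 0.598 in arousal, 31.0-fold below the nearest other library (log2 difference from torpor -5.56, SE 0.54, adjusted p = 0.142 with limma). The files give it no function.

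Among the other 6 were GZMK, a granule protease of killer lymphocytes, and NRN1L, a neuritin-like gene, with 4 genes that carry only a locus number. GZMK stood at 16.8 and 24.7 in torpor, 17 and 32.6 in winter active and 31.5 and 82.9 in summer active, against 6.76 and 7.78 in arousal. NRN1L stood at 28.3 and 8.94, 23.9 and 14.6 and 172 and 253, against 3.48 and 2.66 in arousal. GSTT2B, a glutathione transferase, was uneven between the arousal libraries, at 15.4 and 1.21 against 80.1 and 41.8 in torpor, and so was the mitochondrial carrier gene SLC25A4, at 6.69 and 34.8 against 97.7 and 48.3.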
